A study of Homo sapiens with 40 samples.

Results

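The replication-dependent histone genes were examined in chromatin immunoprecipitation data (ChIP-seq) from EndoC-βH3 cells. They were taken as the protein-coding GENCODE 44 genes on chromosomes 1 and 6 whose symbols name a clustered H1, H2A, H2B, H3 or H4 gene, which gave 68 of 19702 protein-coding genes. Around them lay 38 of 51489 H3K27ac peaks and 28 of 51457 CTCF peaks, counting peaks within 2 kb of a start site or between neighbours less than 100 kb apart. EndoC-βH3 is 1 human beta-cell line made from fetal pancreas. It carries hTERT and the SV40 large T antigen, a viral protein that binds p53 and Rb, as an immortalizing cassette that a tamoxifen-inducible Cre can excise. The 2 states compared were non-senescent cells, without 4-hydroxytamoxifen (4-OHT), and senescent cells, given 4-OHT for 3 weeks. The non-senescent cells keep the immortalizing transgenes, and loss of the cassette, 4-OHT and senescence cannot be told apart in this design. H3K27ac and CTCF were each immunoprecipitated in 3 libraries of each state, and H3K4me1 and Rb in 2 of each, with 1 input per library and 40 libraries in all. All 14 beta-cell markers examined, among them INS and PDX1, had an H3K27ac peak at a start site, whereas the alpha-cell hormone gene GCG, the 3 fibroblast markers and the 3 endothelial markers had none.

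Histones are the proteins around which DNA is wound, and a cell that copies its genome needs a new set for the daughter DNA. The replication-dependent genes supply it during S phase from many nearly identical copies, most of them intronless, and their mRNAs end in a conserved stem-loop instead of a poly(A) tail. The copies lie together in clusters, are read by a shared machinery that includes the coactivator NPAT, a target of cyclin E and CDK2, and are known to be shut down in cells that leave the cell cycle. H3K27ac is an acetylation found at active promoters and enhancers, CTCF is a zinc-finger protein that anchors chromatin loops, and Rb binds E2F factors at cell-cycle promoters.

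The 68 genes comprised 6 H1, 17 H2A, 18 H2B, 13 H3 and 14 H4 genes. H1 is the linker histone, and the other families form the nucleosome core. The genes fell into 6 clusters. On chromosome 1 (hg38), 11 lay between 149812373 and 149887965 and a pair lay at 228457873 to 228458103. On chromosome 6, a pair lay at 25726562 to 25726777, 32 genes at 26017787 to 26285534, 5 at 27132795 to 27147106 and 16 at 27807929 to 27893425. Few other protein-coding genes began inside these spans. BOLA1 was the only one on chromosome 1, and HFE and ENSG00000282988 lay in the cluster of 32. The genes formed 13 head-to-head pairs, in which start sites on opposite strands pointed away from each other. In 12 of them an H2A and an H2B gene began 194 to 251 bp apart, and H3C7 and H2BC9 formed the other pair at 979 bp.

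Promoter sequences from RefSeq (GRCh38.p14, 250 bases before to 50 after the start) were found for 63 of the 68 genes. There was no entry for H2AC12, H3C11, H3C12, H4C1 and H4C3. Where a gene had several, as did 4 of the histone genes, the entry nearest the 5′ end of the gene record was used, and the only entry for H2BC6 began 11702 bp from that end. The promoters below were chosen because in each family their gene had the highest H3K27ac level per kb among genes with a promoter entry whose highest peak covers the start site. H4C1, with a higher level than H4C5, had no entry. They show how the promoter elements differ between families. All are written 5′ to 3′ in the direction of the named gene, with matches to the searched motifs in capitals. H2AC20 had the highest such level of the H2A family, tied with H2AC21 in the same peak. H2AC20 shares the H2BC21 promoter, read from the other strand.

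H1-4, chr6:26156079-26156378, plus strand: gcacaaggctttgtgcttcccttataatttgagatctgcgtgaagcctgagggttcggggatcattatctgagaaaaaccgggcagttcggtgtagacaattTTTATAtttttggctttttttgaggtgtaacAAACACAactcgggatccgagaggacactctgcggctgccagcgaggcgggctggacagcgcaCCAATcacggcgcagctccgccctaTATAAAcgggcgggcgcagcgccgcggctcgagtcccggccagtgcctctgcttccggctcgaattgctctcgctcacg
H2BC21, chr1:149886633-149886932, minus strand: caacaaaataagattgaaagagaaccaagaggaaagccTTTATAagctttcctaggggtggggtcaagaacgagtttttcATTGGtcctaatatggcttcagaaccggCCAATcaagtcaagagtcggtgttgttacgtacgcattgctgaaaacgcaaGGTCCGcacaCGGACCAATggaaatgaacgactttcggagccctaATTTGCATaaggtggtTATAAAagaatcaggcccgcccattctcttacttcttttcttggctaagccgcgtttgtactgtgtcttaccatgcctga
H3C1, chr6:26020201-26020500, plus strand: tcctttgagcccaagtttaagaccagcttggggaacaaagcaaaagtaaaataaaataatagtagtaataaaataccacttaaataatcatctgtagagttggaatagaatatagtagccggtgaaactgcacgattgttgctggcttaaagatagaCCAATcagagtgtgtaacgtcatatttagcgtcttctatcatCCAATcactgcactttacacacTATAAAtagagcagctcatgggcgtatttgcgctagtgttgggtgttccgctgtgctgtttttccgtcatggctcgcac
H4C5, chr6:26204360-26204659, plus strand: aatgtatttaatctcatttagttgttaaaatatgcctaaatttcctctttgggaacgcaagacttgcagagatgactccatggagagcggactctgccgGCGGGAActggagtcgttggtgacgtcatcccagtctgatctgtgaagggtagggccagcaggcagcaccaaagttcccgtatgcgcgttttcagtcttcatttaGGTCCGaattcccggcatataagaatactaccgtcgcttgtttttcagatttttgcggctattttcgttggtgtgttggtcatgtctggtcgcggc

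In the H1-4 promoter the capitals mark, in order, a TATA box on the minus strand and the AC box of H1 promoters (AAACACA) at -117 to -111, counted from the start site. A CCAAT box at -54 to -50 and a TATA box (TATAAA) at -29 to -24 followed. In the H2BC21 promoter they include the octamer ATTTGCAT, bound by POU factors such as POU2F1, at -46 to -39. A TATA box for H2BC21 stood at -30 to -25, and a TATA box on the opposite strand, at -212 to -207, faced the H2AC20 start. In H3C1 they mark CCAAT at -93 to -89 and at -51 to -47, and TATAAA at -29 to -24. The H4C5 promoter had neither, but held an E2F motif (GCGGGAA) at -151 to -145 and the core of Site II (GGTCCG), the element read by HINFP, at -46 to -41.

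Each motif was searched on both strands, and matches were counted beside all 15305 protein-coding promoters with an entry. The TATA box was in 42 of the 63 histone promoters (66.7%) and in 9.75% of all promoters. The CCAAT box, the letters bound by NF-Y, was in 54 (85.7%) against 36.6%. These were all 6 H1, 16 H2A, 18 H2B and 11 H3 promoters, but 3 of 12 H4 promoters. The octamer was in 25 (39.7%) against 1.7%, comprising 14 of 18 H2B promoters and 11 of 16 H2A promoters. The AC box was in all 6 H1 promoters, 2 H3 promoters and 1 H2A promoter, 14.3% of the histone promoters against 4.21%. GGTCCG was in 11 of 12 H4 promoters and in 22.2% of histone promoters (14) against 14.7%. The 3 matches outside the H4 family were in H2AC20, H2BC21 and H3C7. An E2F motif (TTTGGCGC, TTTCGCGC or GCGGGAA) was in 10 of 12 H4 promoters, in 34.9% of the histone promoters and in 10.3% of all. TTTGAA, the cell-cycle homology region, was in 33.3% against 12.1%. Matches of different motifs overlapped in 3 histone promoters. The promoters were poor in G and C, with a median of 44.0% (36.3% to 58.0%) against 63.0% over all promoters. An opposite-strand match in a head-to-head promoter counts for both of its genes.

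The stem-loop of the mature mRNA, searched as a 16-base pattern of stem and loop, was in a transcript of 65 of the 68 genes and in 0.178% of the other protein-coding genes (35). It is shown because it marks this class of mRNA and was not used to choose the genes. The 3 genes without a match were H3C6, H2BC10 and H4C13. Taking for each gene the match nearest to a transcript end, the distance to that end was a median of 5 bases (0 to 1729). The longest distance was in H2BC21, whose transcript runs on past the stem-loop. The match had 7 forms, of which the 3 most frequent are given in full.

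form of 40 genes: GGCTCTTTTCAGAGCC
form of 9 genes: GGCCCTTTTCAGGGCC
another form of 9 genes: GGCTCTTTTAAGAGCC

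H3K27ac marked most of these genes. A peak lay within 2 kb of a start site in 58 of the 68 genes (85.3%), and 66.3% of all protein-coding genes had one. The deposited value of a peak is the authors' mean over the 6 libraries of both states, in size-factor normalized read counts. It is a single value per peak with no SD, so no error or test can be given and no value per state is shown. Peaks differ in width, and levels are therefore compared as mean count per kb of peak. The 58 genes had a median level of 221.1 counts per kb (quartiles 198.7 and 383.5, range 35.06 to 973.2), beside a median of 184.0 (quartiles 115.4 and 267.2) over all 13065 protein-coding genes with a peak. Of the 58, 44 lay above that overall median, 28 above its upper quartile and 4 below its lower quartile. The peaks were also wide, with a median of 4168 bp against 2976 bp. The genes shared 33 highest peaks and are not independent of each other. Counted once per peak, the median was 218.1 counts per kb. For 51 of the 58 genes the highest peak covered a start site, and for 49 the whole coding sequence lay inside it.

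**Figure D1:**
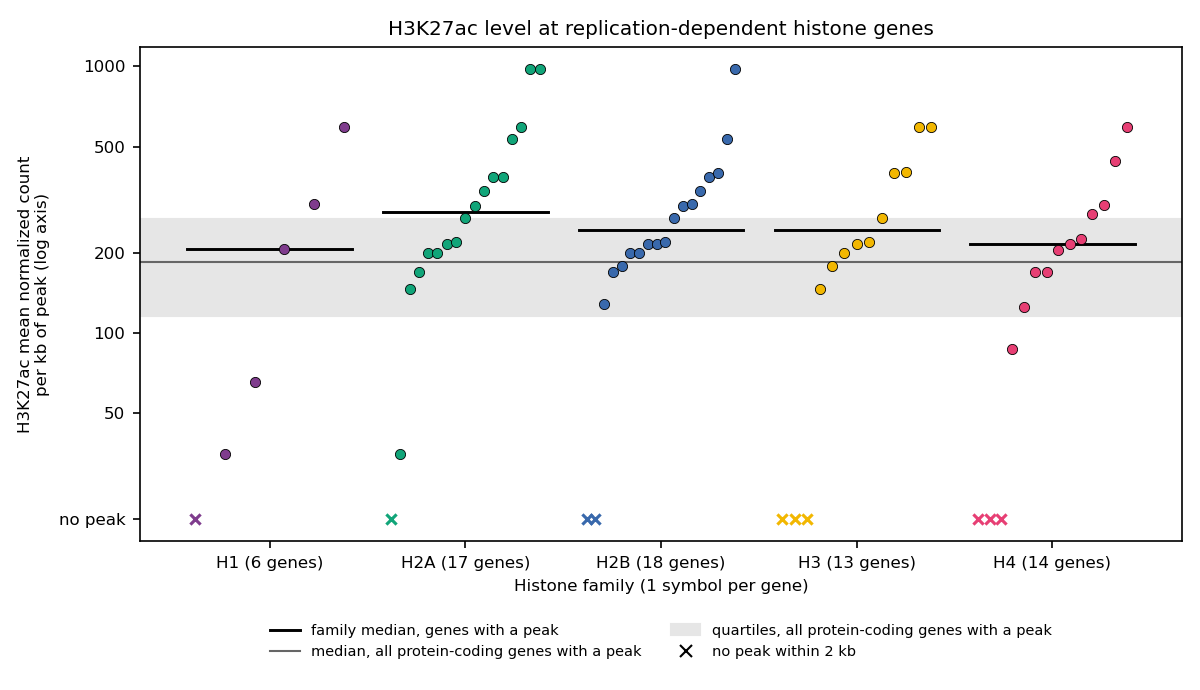
H3K27ac mean normalized count per kb of the highest peak within 2 kb of a start site (log axis) for each of the 68 histone genes, by family. Black bars are family medians over genes with a peak, the grey line and band are the median (184.0) and quartiles (115.4 and 267.2) of all protein-coding genes with a peak, and crosses are the 10 genes without a peak, so that the family medians are seen to lie between 205.5 and 284.0 with levels from 35.06 to 973.2.

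The H2A family had the highest median level, 284.0 counts per kb over 16 of 17 genes, and H1 the lowest, 205.5 over 5 of 6. The medians were 243.8 for H2B (16 of 18 genes), 243.8 for H3 (10 of 13) and 214.9 for H4 (11 of 14). Within each family the range was far wider than these differences between medians. The highest peak covered a start site in 14 of these H2A, 16 H2B, 8 H3, 10 H4 and 3 H1 genes. All medians but that of H2B thus include peaks beside the gene. For H2A these were H2AC18 (382.6) and H2AC19 (594.3), both in repeated sequence. The order of the families is therefore not a finding. The 5 highest genes of the set that passed the level of the top 1% of all genes came from 2 peaks on chromosome 1. One peak of 5491 bp at chr1:149883985-149889475 had 5344 mean counts, or 973.2 per kb, and covered H2BC21, H2AC20 and H2AC21. A start site of BOLA1 also lay within 2 kb of it, so its level may not be that of the histone genes alone. H2AC19 and H3C15 lay beside the other peak (594.3 per kb), which did not cover their start sites. On chromosome 6 the highest level was 589.8 per kb at chr6:26019326-26023493, over H3C1 and H4C1. H1-1 was assigned the same peak as the highest in its window, but the peak over its own start had 139.6 per kb. The H2AC15 and H2BC15 pair followed with 531.6 per kb and H4C5 with 440.0. H1-4, a linker histone gene, and its neighbour H2BC5 shared a peak of 303.9 per kb.

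At the low end, H2AC16 and the linker histone gene H1-5 had only a 35.06 per kb peak (17.53 mean counts), which covered the H2AC16 start but not that of H1-5. H1-3 had 65.11 per kb and H4C9 86.99. H2BC6, the lowest of the H2B family, had 128.7 per kb over its outer start site. A lower peak of 75.34 per kb (135.8 mean counts) overlapped its coding exon. H3C2 and H2AC4 shared the lowest peak of the H3 family, 146.3 per kb. H4C6 was at 125.3 per kb. H3C12 was assigned the peak of its neighbours H2AC17 and H2BC17 (269.4 per kb), and a peak of 30.8 mean counts lay over its own start. The H4C7 start was not covered by the H3C7 and H2BC9 peak in its window (214.9 per kb).

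No H3K27ac peak lay within 2 kb of 10 genes. They included the genes known for expression in testis, the linker histone H1-6 and the pair H2AC1 and H2BC1, whose nearest peaks were 3050, 8413 and 8628 bp away. H3C8 and H2BC10, near the end of the cluster of 32, were 12360 and 11129 bp from a peak, and H3C11 and H4C13 were 6663 and 7851 bp away. The other 3, H4C14, H3C14 and H4C15, lie in a stretch of chromosome 1 that occurs in near-identical mirrored copies. Their nearest peaks were 10565, 2014 and 10325 bp away, so that H3C14 lay just outside the window, and H3C15, at 1774 bp, just inside it. In this stretch 100% of the 64-base words around H4C14, H3C14, H3C15 and H4C15 occur more than once on chromosomes 1 and 6. For H2AC18 and H2AC19 the share was 68.5%, for H3C13 61.6% and for H2BC18 58.9%, and for every other member at most 12.4%. Reads from such copies may not be placed uniquely, and values of these 8 genes are uncertain. The part of repeated sequence in the result was not tested. Without them, 53 of 60 genes had an H3K27ac peak, at a median of 218.1 counts per kb.

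Neighbouring genes were covered together. Of the 36 H3K27ac peaks at start sites, 16 lay in the window of 1 histone gene, 14 of 2 and 6 of 3. In 12 of the 13 head-to-head pairs both genes lay in 1 peak, the exception being H2AC1 and H2BC1, which had none. In all, H3K27ac peaks covered 28.0% of the cluster spans, windows included. The share was 30.2% for the cluster of 32, 24.6% for that of 16 and 17.4% for that of 11. It was 53.6% for the cluster of 5, 72.5% for the H2AC25 and H2BC26 pair and 0% for the H2AC1 and H2BC1 pair. Only 2 H3K27ac peaks lay between members and outside all windows, with 76.81 and 229.4 mean counts. The summed mean count of the 38 peaks was 0.2% of that of all H3K27ac peaks, of which they were 0.0738% by number.

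**Figure D2:**
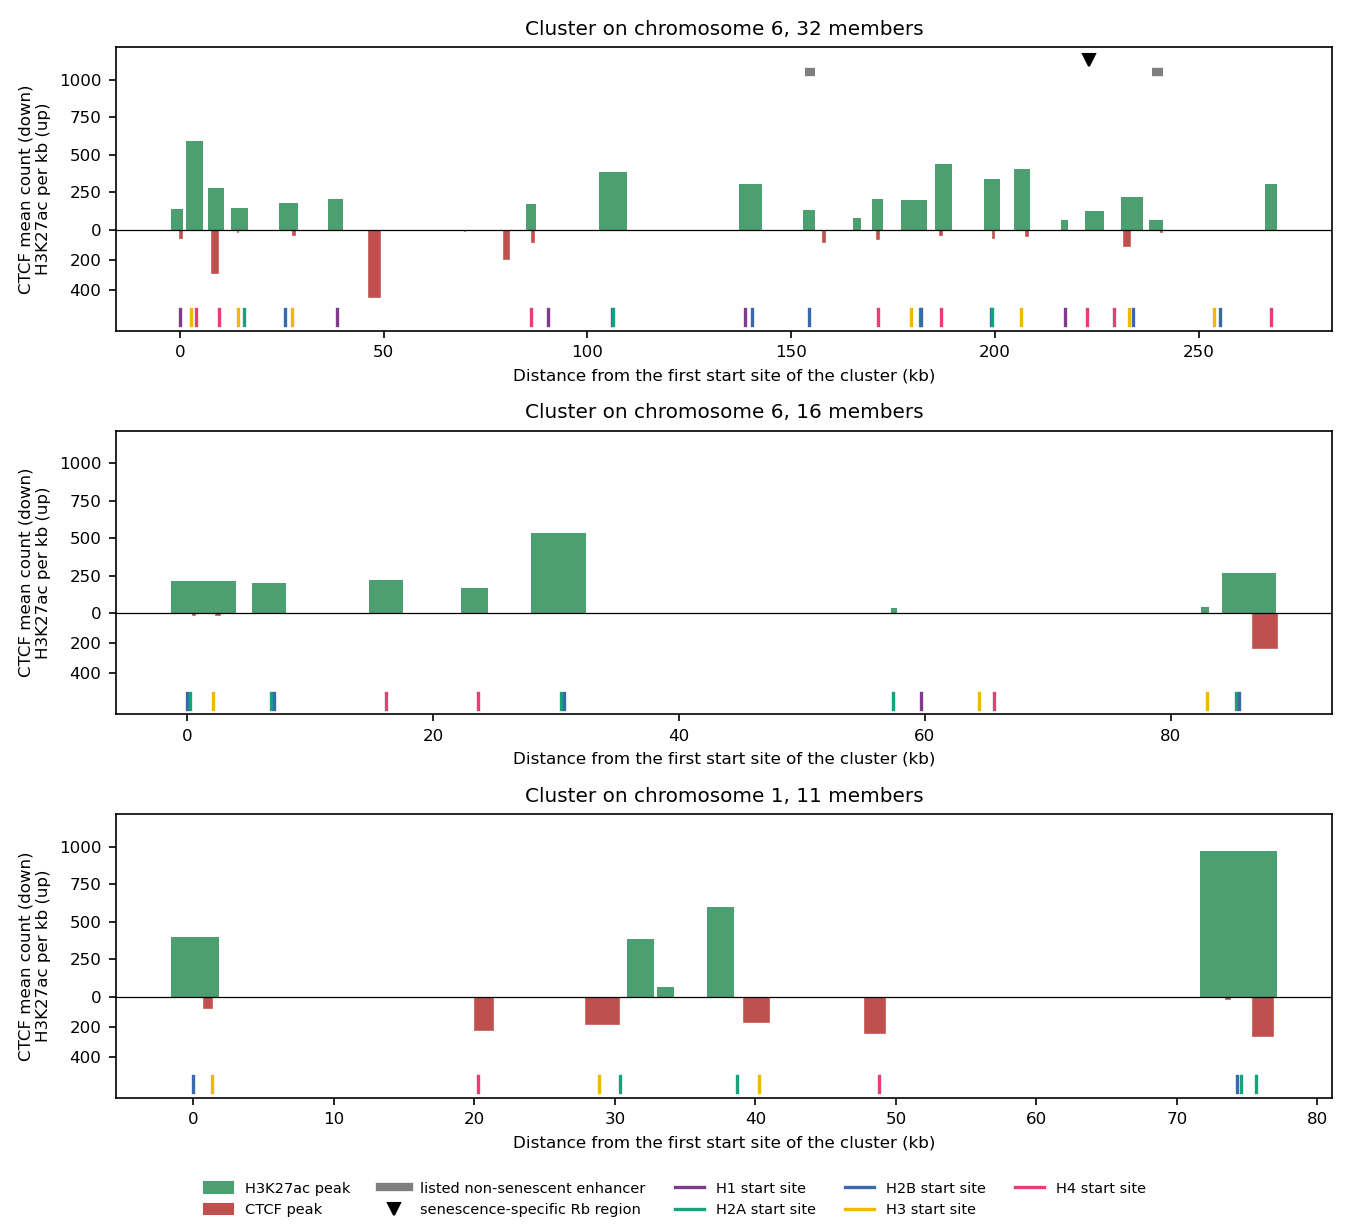
Peaks along the 3 largest histone clusters, plotted by distance from the first start site in kb. Green bars upward are H3K27ac mean counts per kb of peak, red bars downward are CTCF mean counts, ticks at the bottom are start sites coloured by family, and the grey bars and the triangle in the top panel are the 2 listed non-senescent enhancers and the Rb region. The green bars stand over groups of start sites, and the highest, at 973.2 per kb, is at the right end of the chromosome 1 cluster.

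CTCF was found at 34 of the 68 genes (50.0%), close to the 47.6% of all protein-coding genes. It was unevenly spread. All 13 genes on chromosome 1 had a CTCF peak within 2 kb, and 21 of 55 on chromosome 6 (38.2%). The chromosome 1 genes shared peaks, 7 in the windows of the cluster of 11 and 2 in those of the pair, and are not independent. By family, 10 of 17 H2A, 9 of 18 H2B, 8 of 13 H3, 6 of 14 H4 and 1 of 6 H1 genes had one. Without the 8 genes in repeated sequence, which all lie on chromosome 1 and all had a CTCF peak, the count was 26 of 60. Both marks were present at 31 genes, H3K27ac alone at 27, CTCF alone at 3 (H4C14, H3C14 and H4C15), and neither at 7. These CTCF peaks were about as large as those at all protein-coding genes. Over the 34 genes the median of the highest peak was 77.03 mean counts (9.982 to 289.7), beside 84.92 over all 9371 genes with one. Of the 34, 16 lay above that overall median. Counted once per peak, the median was 64.21, beside 57.64 over CTCF peaks at all protein-coding start sites. Requiring at least 50 mean counts left 23 of the 34 genes, and the share over all genes at this limit was not counted.

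The CTCF peaks lay over the bodies of the genes more often than before them. Of the 23 distinct peaks at start sites, 19 (82.6%) overlapped a coding exon of a histone gene, and among all 11061 CTCF peaks at protein-coding start sites 42.4% overlapped a coding exon. Histone genes are short and mostly without introns, and their coding sequence begins near the start site. The peak covered a start site in 15 of the 34 genes (44.1%), against 55.9% of all genes with a CTCF peak, and its centre lay downstream of the nearest start site in 20 (58.8%), against 46.2%. In the H4 family 5 of 6 centres were downstream and in the H3 family 6 of 8. The H4C3, H4C4, H4C14 and H4C15 centres were 296, 192, 330 and 302 bp past the start. That of H4C2, at 928 bp, lay beyond the end of the gene. H4C5 was the exception, with a centre at -282 bp. The centres of H3C2, H3C3, H3C10 and H3C13 were at 88, 324, 362 and 319 bp. In H2A and H2B pairs a peak over 1 gene is upstream of its partner, so that the H2AC8 peak, 336 bp into that gene, is at -568 bp from the H2BC8 start, and the H2AC13 peak, at 296 bp, is at -540 bp from that of H2BC13. H1-1, the linker histone gene with CTCF, had a peak of 52.6 mean counts over its start.

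**Figure D3:**
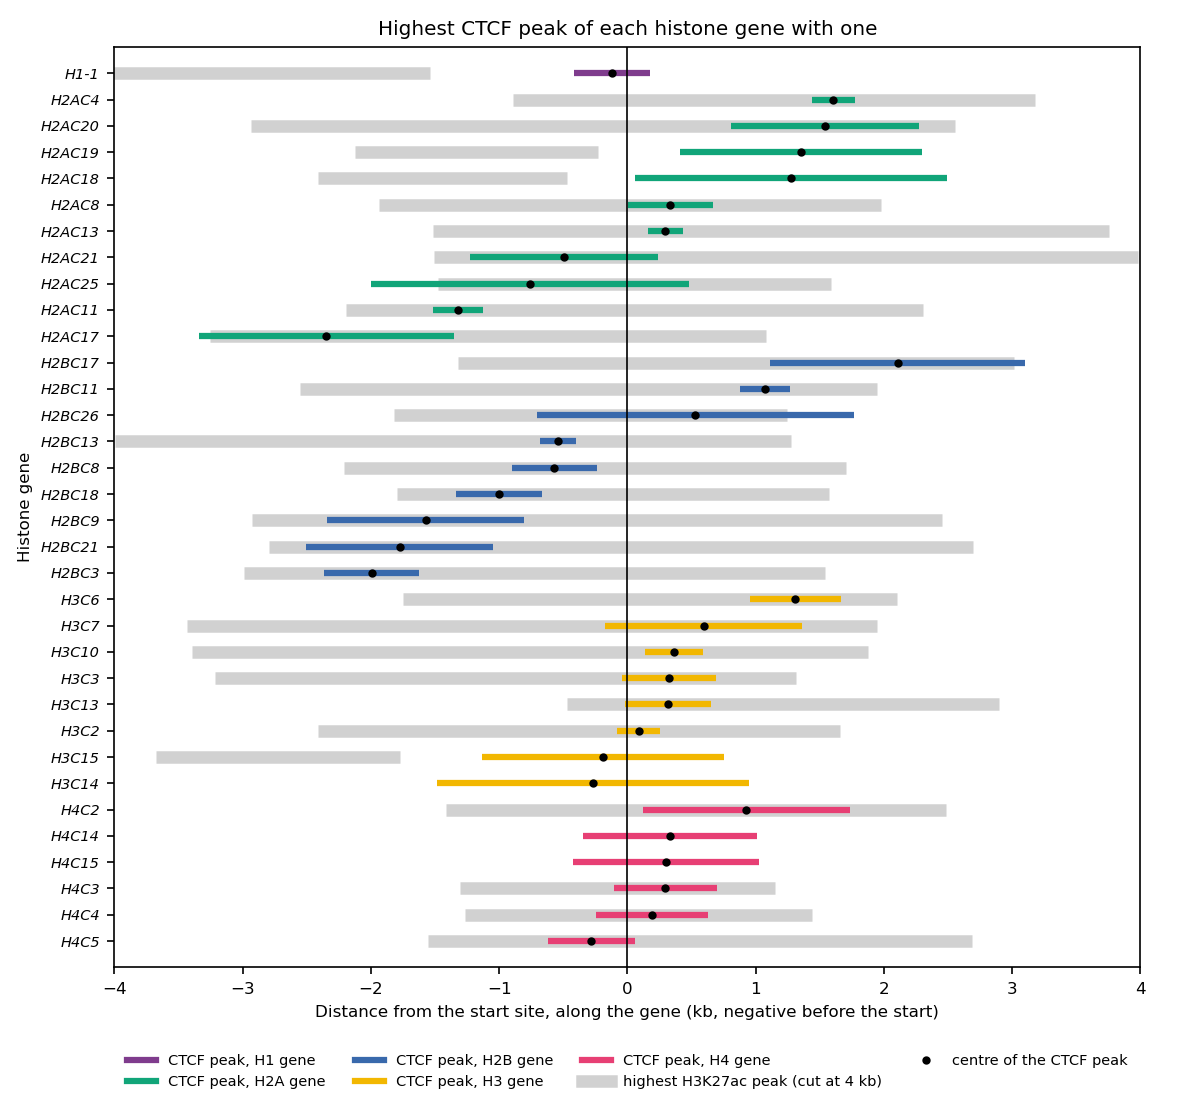
Position of the highest CTCF peak of each of the 34 histone genes that had one, along the gene, in kb from the outermost 5′ start site. Distances in the text are from the nearest start site and can differ for genes with several. Coloured bars are CTCF peaks by family, black dots their centres, and grey bars the highest H3K27ac peak of the gene; H3 and H4 peaks sit mostly on or just after the start, and those of H2B genes mostly before it.

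The largest CTCF peak of the clusters lay far from any histone start, at chr6:26063983-26066839 between H1-2 and H4C3, with 447.2 mean counts. Of the 5 CTCF peaks between members, all in the cluster of 32, 1 overlapped an H3K27ac peak, whereas 18 of the 23 at start sites did (78.3%, beside 69.4% of CTCF peaks at all start sites). The largest at a start site had 289.7 mean counts at H4C2. It was followed by 264.0 at H2AC21, in a peak that also lay within 2 kb of a BOLA1 start site. Next were 241.7 at H4C15, 234.2 after H2BC17, 223.6 at H4C14 and 197.9 at H2AC25 and H2BC26. Then came 180.3 at H3C14 and H2AC18, and 168.5 at H2AC19 and H3C15. H3C7 and H2BC9 shared 104.9 mean counts, H4C3 had 81.17, H2BC18 and H3C13 shared 72.88, and H4C4 had 64.21. The remaining peaks at start sites were between 9.982 (H2BC13, H2AC13 and H3C10) and 56.11 (H2BC8 and H2AC8). They included those of H3C6 (38.36), H4C5 (34.62), H2BC3 and H3C3 (32.41), H3C2 and H2AC4 (14.98) and H2BC11 and H2AC11 (14.83).

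The authors' methods describe keeping CTCF peaks that hold the JASPAR CTCF motif, and whether the deposited table is from before or after that step is not stated, so motif shares are over peaks that may have been selected for the motif. The CTCF core motif, a 12-base core with 8 fixed letters, was searched on both strands of the 28 peaks. Allowing 1 mismatch, it was in 22 (78.6%) and in 76.1% of all CTCF peaks, but also in 43.1% of regions 10 kb away from them, so this form separates peaks from other sequence poorly. Without mismatch it was in 2 peaks (7.14%) against 23.6% of all CTCF peaks and 17.3% of those at protein-coding start sites. A stricter form, with base choices in place of the free letters and chosen after seeing these shares, was in 6 of 28 peaks (21.4%) with at most 1 mismatch, against 47.2% of all CTCF peaks and 34.6% of those at start sites. It was in 6.7% of the shifted regions. Without mismatch it was in 0 of the 28 against 13.5%. The best matches in the peaks below are in capitals, with 9 bases on either side. They were chosen because they include the 2 largest peaks, both exact cores, the mirrored copies and the matches that recur between family members.

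between H1-2 and H4C3, chr6:26065083-26065112, plus strand: actgggaagCCATGAGACTGCatggattgc
after H4C2, chr6:26026436-26026465, plus strand: ctggcgctaCCGGCAGGGGGCggttaagga
before H2AC21, chr1:149888585-149888614, plus strand: tcttgacctCCAGGAGGCGGCcttcaaact
after H2BC17, chr6:27895672-27895701, minus strand: gcttttttgCCACAAGATGGCaggagaagg
after H3C14, chr1:149840476-149840505, plus strand: cgccaaagcCCGCGAGCCGGCgcccaggaa
after H3C15, chr1:149853307-149853336, minus strand: cgccaaagcCCGCGAGCCGGCgcccaggaa
within H2AC25, chr1:228457429-228457458, minus strand: gacggagagCCACCACAAGGCcaagggcaa
within H2AC8, chr6:26217334-26217363, plus strand: gacggagagCCACCATAAGGCcaagggcaa
within H3C7, chr6:26250532-26250561, minus strand: agccccgcgCAAGCAGCTGGCcactaaggc
within H3C6, chr6:26225199-26225228, plus strand: agcaccgcgCAAACAGCTGGCcactaaggc

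The matches before H2AC21 (at -634 bp) and after H2BC17 (at 2261 bp) were exact, and the others had 1 mismatch. Of the 22 matches, 7 lay wholly in the coding sequence of a histone gene, among them the last 4 shown. The windows after H3C14 and H3C15, in the mirrored copies, differed at 0 of 30 letters. Those within H2AC25 and H2AC8, on different chromosomes, differed at 1 letter, and those within H3C7 and H3C6 at 2. The H4C5 match, at -90 bp, lies in the promoter printed above. A match is a description of the letters and not a bound site.

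The lists of regions for each state were also compared with the clusters. The study's methods took enhancers outside promoters, so start-site windows could hold few of them by definition. A low count of enhancers in the clusters is therefore not a finding about histone genes. Of 14886 enhancers listed for non-senescent cells, 2 overlapped the clusters, and of 13076 listed for senescent cells, 0 did. The first, at chr6:26171257-26173612, lay over the outer start site of H2BC6, away from its coding exon. H2BC6 was the H2B gene with the lowest H3K27ac level. The second, at chr6:26256418-26259053, lay between H2BC9 and H3C8 on an H3K27ac peak with 229.4 mean counts and a CTCF peak with 12.56. Over all protein-coding genes, 4.02% had a listed non-senescent enhancer within 2 kb of a start site and 3.73% a senescent one. Each list is 1 set of regions without replicates, so the difference between 2 and 0 was not tested. Of the 68 histone genes, 1 had a senescence-specific Rb region (2435 in all) in its window, beside 1.56% of all protein-coding genes (308 of 19702). With 1 gene of 68 near that share, neither a shortage nor an excess is seen. The region was at chr6:26240593-26240917 (325 bp), over the coding exon of H4C6. It lay 362 bp from the start, inside the H3K27ac peak of 125.3 counts per kb.

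The genes that read and process histone mRNAs, and the histone genes outside the clusters, were described from lists chosen by function. For comparison, 66.3% of all protein-coding genes had an H3K27ac peak, at a median of 184.0 counts per kb. Of 18 regulators and processing factors, 17 had an H3K27ac peak, with a median of 171.3 counts per kb (56.29 to 536.1). CCNE1, a cyclin E gene, was the 1 without. The highest were POU2F1 (536.1), the octamer-binding factor, and NFYA (368.4), a subunit of NF-Y, and the lowest was the cleavage factor gene CSTF2 (56.29). NPAT was at 209.4 and SLBP, which encodes the stem-loop binding protein, at 254.7. Of 12 replication-independent histone genes, which supply histones outside S phase, 11 had a peak, at a median of 237.0. H3-3B (708.3), encoding H3.3, and H2AZ2 (337.6) were highest, the centromeric CENPA was lowest (77.51), and H3-5 had none. All 16 histone chaperone genes had a peak, at a median of 182.4. HIRA (335.3), which deposits H3.3, and NAP1L1 (332.8) were highest, and CHAF1B (72.2), a subunit of the replication-coupled chaperone CAF-1, was lowest. CTCF peaks were at 10 of the 18, 9 of the 12 and 8 of the 16 genes, beside 47.6% of all protein-coding genes. Rb regions were at 0 genes of each list, beside 1.56% of all genes, a share too small for lists of this size to show a difference.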

How the data were processed

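ChIP-seq libraries of EndoC-βH3 cells were assigned to antibody and state by their labels, which do not say whether replicates came from separate cultures. Per the study's methods, the authors aligned reads to hg38 with Bowtie2, and called peaks with HOMER for H3K27ac and MACS2 for CTCF. Duplicate removal is stated for H3K27ac, H3K4me1 and Rb, not for CTCF. How multiply aligned reads were treated is not given in the sources used here. The values used are the deposited signal, which the authors made with DESeq2 as a peak's mean count over the 6 libraries of both states after scaling by size factors. The authors' fold changes, standard errors, test scores and p-values between states, held in the same tables, were not used, and values per library were not analysed here, so that no state was tested against another. The methods give a read target per library, but the reads obtained from each were not analysed here. The mean signals of all peaks summed to 19239499 counts for H3K27ac and 6136424 for CTCF.

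Start sites were those of protein-coding transcripts in GENCODE 44. A peak was assigned to a gene where at least 1 base lay within 2 kb of a start site, and the peak with the highest mean was used. Peaks, motifs and overlaps were counted in Python 3.11.15 with numpy 2.4.6 and pandas 2.3.3, and the overlap and motif searches were tested on simulated data. File positions counted from 0 were converted to count from 1. RefSeq promoter sequences and the hg38 genome were used. Genes were named by family: those without a peak, the 2 highest and the lowest by H3K27ac level per kb, and those with a CTCF peak or Rb region. The genes and lists were chosen with earlier results of these data known. Windows, thresholds and definitions were varied as given at the end.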

Additional observations from a re-analysis of the deposited data

How the results depend on the processing

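Of 29 alternative settings over 9 results, 26 left the value within the limits set. Counts had to stay within 1.5 times the count reported. The median H3K27ac level had to stay within its 95% binomial interval over genes (214.9 to 301.9 counts per kb). That interval treats genes as independent although they share peaks, so it is a yardstick for the settings and not an error of the median. The genes with an H3K27ac peak numbered 55 to 60 of 68 under windows of 1 and 5 kb, gene-record start sites, peak centres or a mean of at least 50 counts. Those with a CTCF peak numbered 23 to 44. The values that moved were the distinct CTCF peaks of the clusters, 17 in place of 28 at a mean of at least 50 counts, and the CTCF peaks with a core motif, 2 in place of 22 without mismatch and 6 with the stricter form. That form, the sets without genes in repeated sequence and the peaks covering a start site were added after seeing the data. No paired analysis was possible because the deposited values hold no column per library, and leaving out each replicate could not be done for the same reason. The reads obtained per library were not analysed here, and a missing peak is not evidence of a missing mark.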
